A study of Mus musculus with 9 samples.

Results

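Integrins and their matrix ligands were described in mouse primary calvarial pre-osteoblasts that carried 1 of 3 adenoviral vectors. The list was set by gene names, with earlier results of these data known. It took every symbol of the integrin alpha subunits and of the beta subunits from Itgb1 to Itgb8, the beta-like gene Itgbl1, and 13 matrix or secreted genes (Npnt, Fn1, Vtn, Tnc, Tnn, Postn, Nid1, Nid2, Lamb1, Lamc1, Edil3, Fbln5 and Ndnf). This gave 40 genes, 18 of them alpha subunits and 8 beta subunits, of 40213 symbols in the count files. Cells released by enzymes from the skull bones of 3-day-old wild-type pups, a preparation that can hold other cell types, were infected with Ad-Hif1a, Ad-Hif2a or the control vector Ad-C on day 3 and harvested on day 6, with 3 RNA libraries per group. All groups, controls included, carried an adenovirus and were grown in normal oxygen in differentiation medium with L-AA at 50 μg/ml and β-Gp at 5 mM. The study gives ICR mice as the source of its calvarial pre-osteoblasts. The dose of virus for these libraries is not given in the sources used here. The study's methods call its replicates independent experiments or mice, and the labels do not say what separated the libraries of a group.

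Hif1a stood at 1240.3, 1929.6 and 2324 CPM with Ad-Hif1a and 575, 585 and 447 CPM with Ad-Hif2a, against 193, 190.3 and 186 CPM with Ad-C. Epas1, the gene of HIF-2α, stood at 407, 486 and 679 CPM with Ad-Hif1a and 1996, 2180.5 and 823 CPM with Ad-Hif2a, against 47.1, 41.9 and 48.8 CPM with Ad-C. Each vector's own gene was highest in its libraries, but both genes rose with both vectors, so the transcripts of both factors were above Ad-C in each vector group. Reads of the vector's own transcript may be counted in these values. Library totals were 16239634 to 17696512 counts with Ad-Hif1a, 14372589 to 17517897 with Ad-Hif2a and 17444224 to 18623403 with Ad-C. Ad-Hif1a replicate 1 and Ad-Hif2a replicate 3 stood apart, with the members at 1.52% and 0.975% of all counts, against 2.02 to 2.80% in the other 4 vector libraries and 3.16 to 3.67% with Ad-C. Their mitochondrial share of counts was 2.84% and 2.71%, against 3.56 to 5.58% in the other 4 vector libraries and 5.73 to 6.17% with Ad-C, and its part in the members' values was not tested. All 10 osteoblast markers on the list were detected, with a summed level of 45251 to 54064 CPM with the HIF vectors and 57894 to 63340.2 CPM with Ad-C. The cultures also held macrophage transcripts, at 1639 to 1945 CPM with the HIF vectors and 3907 to 4151 CPM with Ad-C over 18 markers.

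Integrins are receptors made of an alpha and a beta chain that span the cell membrane and tie the matrix outside to the actin skeleton inside. The pair of chains sets the ligand: Itgb1 pairs with a large set of alpha chains to bind collagens, laminins and fibronectin, Itgav pairs with several beta chains to bind ligands that carry the tripeptide arginine-glycine-aspartate (RGD), and Itgb2 pairs with alpha chains of leukocytes. In bone, osteoblasts lay down and attach to a matrix of collagen, fibronectin and matricellular proteins through such receptors.

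Levels are given as CPM, the count of a gene relative to its library's total after TMM scaling. Members were read from an edgeR quasi-likelihood fit over all 14413 genes with enough counts, and a gene is said to have risen or fallen when its Benjamini-Hochberg adjusted p over those genes was under 0.05. Of the 40 members, 36 could be tested. Vtn had at most 1 count in any library, and Itgad at most 1, Itgae at most 3 and Itgb6 at most 7, so they were below the filter.

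With Ad-Hif1a against Ad-C, 6 members rose and 9 fell. Over all genes tested, 11.3% passed, 6.04% upward and 5.22% downward, while 15 of the 36 members (41.7%) passed. With Ad-Hif2a against Ad-C, 6 members rose and 12 fell, which was 18 of 36 (50.0%), against 15.6% of all genes, 7.87% upward and 7.72% downward. The median log2 fold change of the 36 members was -0.40 with Ad-Hif1a and -0.53 with Ad-Hif2a, beside medians of 0.01 over all genes in both comparisons. The members that rose were Itga5, Itga7, Itgal, Itgb3, Postn and Tnc in both comparisons, and those that fell in both were Itga2, Itga4, Itga6, Itga10, Itgax, Itgbl1, Ndnf, Npnt and Tnn. Itga1, Itgb4 and Itgb5 passed with Ad-Hif2a and not with Ad-Hif1a. DESeq2 called these same members and also Itga8, Itgav, Itgb2 and Nid1 in both comparisons and Itga1 with Ad-Hif1a. The 2 comparisons share the Ad-C libraries and are not independent. These are bulk libraries, so fewer cells of a type and less RNA per cell cannot be told apart.

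**Figure D1:**
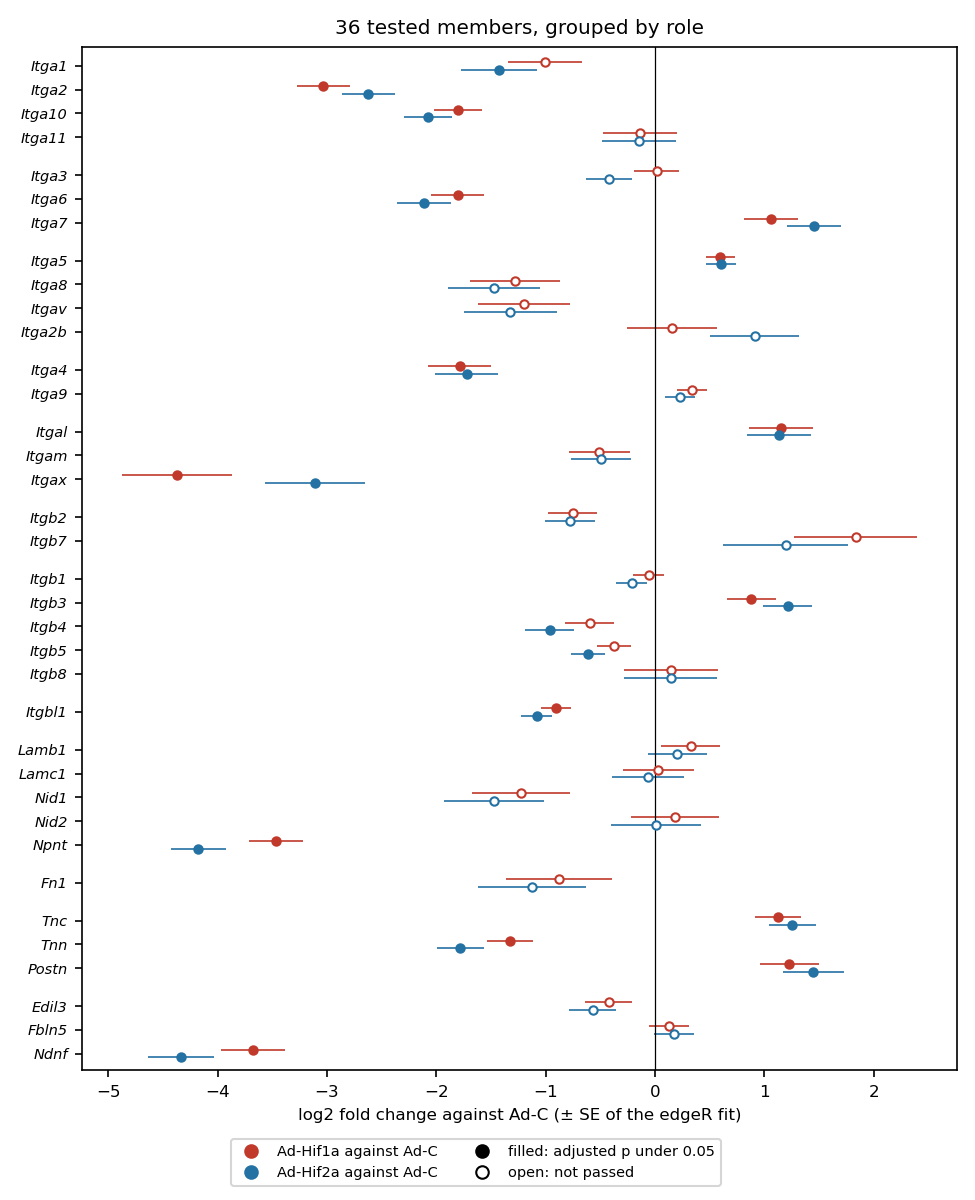
Log2 fold changes of the 36 tested members against Ad-C (x axis, with an SE derived from the edgeR F statistic as bars), 1 member per line, grouped by role, for Ad-Hif1a (red) and Ad-Hif2a (blue). Filled points passed at an adjusted p under 0.05. Npnt, Ndnf, Itgax and Itga2 lie farthest to the left, and the 6 members that rose lie between 0.60 and 1.46.

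Among the ligands, nephronectin (Npnt), a basement membrane protein that binds the integrin of Itga8 and Itgb1, fell. Npnt stood at 10.6, 11.5 and 12.6 CPM with Ad-Hif1a and 7.31, 9.32 and 4.81 CPM with Ad-Hif2a, against 131, 123 and 130.2 CPM with Ad-C. Every HIF library lay far below every control library. On the log2 scale the difference was -3.47 (adjusted p = 0.000384, SE 0.24) with Ad-Hif1a and -4.18 (adjusted p = 0.000177, SE 0.26) with Ad-Hif2a, which is 11.1-fold and 18.1-fold lower. The call held in each of the fits that left out 1 library, at an adjusted p of at most 0.00794 with Ad-Hif1a and 0.00414 with Ad-Hif2a.

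Ndnf, a secreted protein with fibronectin type III domains first described as a neurotrophic factor, had 61.8, 81.3 and 92.3 CPM with Ad-Hif1a and 36.5, 75.7 and 40.5 CPM with Ad-Hif2a, against 1037, 939 and 976 CPM with Ad-C. It was the ligand with the largest fall in both comparisons, and its groups did not overlap. Ndnf stood -3.67 (adjusted p = 0.000548, SE 0.29) with Ad-Hif1a and -4.34 (adjusted p = 0.000287, SE 0.30) with Ad-Hif2a from Ad-C on the log2 scale, or 12.8-fold and 20.2-fold lower. Left-out libraries moved the adjusted p to at most 0.00913 and 0.00458.

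The RGD tripeptide by which ligands are held by Itgav, Itga5 and Itga8 receptors was searched in the longest complete coding sequence of each of the 13 ligand genes and Itgbl1 (GENCODE M21, on GRCm38). It was found in 8 of these 14 genes (57.1%), against 1562 of 21504 protein-coding genes (7.26%); the ligands were chosen with their integrin binding known, so this is a description. The windows below are shown because they tell the ligands with the tripeptide, Npnt among them, from those without it. They give 15 coding bases on each side, with the 3 codons in capitals:
Npnt, residue 430, chromosome 3: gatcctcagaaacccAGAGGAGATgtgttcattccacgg
Fn1, residue 1614, chromosome 1: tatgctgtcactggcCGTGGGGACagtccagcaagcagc
Fn1, residue 2181, chromosome 1: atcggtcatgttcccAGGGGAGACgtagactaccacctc
Tnn, residue 427, chromosome 1: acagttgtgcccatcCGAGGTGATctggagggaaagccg
Edil3, residue 96, chromosome 13: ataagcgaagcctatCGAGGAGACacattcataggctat
Nid1, residue 700, chromosome 13: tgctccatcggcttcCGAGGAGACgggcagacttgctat
Nid2, residue 946, chromosome 14: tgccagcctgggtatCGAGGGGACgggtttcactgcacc
Fbln5, residue 67, chromosome 12: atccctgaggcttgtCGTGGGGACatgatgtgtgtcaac
Vtn, residue 64, chromosome 11: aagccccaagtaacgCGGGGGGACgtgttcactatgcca

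Of the 7 tested genes with the tripeptide, Npnt and Tnn fell with both vectors and Fn1, Edil3, Nid1, Nid2 and Fbln5 did not pass. Tnc and Postn, the ligands that rose, held no RGD codons in these mouse coding sequences, and neither did Ndnf, Lamb1, Lamc1 or Itgbl1. A match is a description of the sequence and does not show that an integrin binds there.

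The tenascins and periostin moved in opposite directions. Tenascin-C (Tnc), a matricellular protein of developing and healing tissue that Itga9 and Itgav receptors bind, stood at 869, 1001 and 1077 CPM with Ad-Hif1a and 1233, 1211 and 808 CPM with Ad-Hif2a, against 447, 431 and 476 CPM with Ad-C. Periostin (Postn), a protein of the periosteum and other collagen-rich tissue that binds Itgav receptors, stood at 1034, 1264 and 1379 CPM with Ad-Hif1a and 2019, 1382 and 978 CPM with Ad-Hif2a, against 506, 542 and 528 CPM with Ad-C. Both were above every Ad-C library in all 6 HIF libraries. The log2 fold change of Tnc was 1.12 (adjusted p = 0.0168, SE 0.21) with Ad-Hif1a and 1.26 (adjusted p = 0.00885, SE 0.21) with Ad-Hif2a, and that of Postn was 1.23 (adjusted p = 0.0308, SE 0.27) with Ad-Hif1a and 1.45 (adjusted p = 0.0141, SE 0.28) with Ad-Hif2a. With 1 library left out, both genes lost both calls without Ad-C replicate 1 or 2, and in 3 to 6 of 9 fits in all: the adjusted p reached 0.123 and 0.0794 for Tnc and 0.183 and 0.115 for Postn, while the lowest log2 fold change stayed at 0.96 and 1.10 for Tnc and 0.99 and 1.08 for Postn.

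Tenascin-W (Tnn), which is laid down around osteoblasts and in periosteum, went the other way. It had 77.8, 79.2 and 76.4 CPM with Ad-Hif1a and 44.4, 81.2 and 48.9 CPM with Ad-Hif2a, against 188, 188 and 208 CPM with Ad-C. No HIF library reached the lowest control library. Its change was -1.33 (adjusted p = 0.00912, SE 0.21) with Ad-Hif1a and -1.78 (adjusted p = 0.00246, SE 0.22) with Ad-Hif2a on the log2 scale. With Ad-Hif1a the call was lost without Ad-Hif1a replicate 2, Ad-C replicate 1 or Ad-C replicate 3 (adjusted p up to 0.0789), and with Ad-Hif2a it held throughout (up to 0.0257).

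Fibronectin (Fn1), the most abundant ligand of the set, did not pass. It stood at 9364, 13447 and 20767 CPM with Ad-Hif1a and 13052, 18828 and 5195 CPM with Ad-Hif2a, against 26678, 23491 and 28851 CPM with Ad-C. No HIF library reached the controls, but the highest library was 2.22 times the lowest with Ad-Hif1a and 3.62 times the lowest with Ad-Hif2a, against 1.23 times with Ad-C. Its log2 difference from the controls was -0.88 (adjusted p = 0.298, SE 0.48) with Ad-Hif1a and -1.13 (adjusted p = 0.155, SE 0.49) with Ad-Hif2a. Without the 2 libraries that stood apart, an alternative chosen after seeing the data, it was -0.73 (adjusted p = 0.00929) with Ad-Hif1a and -0.59 (adjusted p = 0.0249) with Ad-Hif2a. Those libraries were set apart partly by the members' own low counts, Fn1 among them. Passes in this alternative, here and below, are therefore no independent support. Over all genes it called 4022 with Ad-Hif1a and 4173 with Ad-Hif2a, against 1624 and 2247 with all libraries. Per kb of its longest transcript, Fn1 stood at 1747 ± 695 CPM per kb with Ad-Hif1a, 1486 ± 823 with Ad-Hif2a and 3168 ± 324 with Ad-C (SD, n = 3 each), and in each group it was above every other member on this scale.

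The proteins that join laminin and collagen networks in basement membranes shared this spread. Nid1, which links laminin to type IV collagen, had 124, 185 and 269 CPM with Ad-Hif1a and 176, 249 and 73.1 CPM with Ad-Hif2a, against 449, 423 and 472 CPM with Ad-C. Its groups did not overlap, yet a log2 difference of -1.23 (adjusted p = 0.138, SE 0.45) with Ad-Hif1a and -1.47 (adjusted p = 0.0709, SE 0.46) with Ad-Hif2a did not pass in edgeR. DESeq2 gave adjusted p of 0.0306 and 0.00466. Without the 2 libraries that stood apart, which were set apart partly by the members' own counts, it was -1.07 (adjusted p = 0.000212) and -0.97 (adjusted p = 0.000347). The related Nid2 had 210.4 to 429.8 CPM with Ad-Hif1a and 135 to 384 CPM with Ad-Hif2a, against 267 to 282 CPM with Ad-C, overlapping in both comparisons (0.18, adjusted p = 0.796, SE 0.41, with Ad-Hif1a and 0.01, adjusted p = 0.986, SE 0.41, with Ad-Hif2a). Lamb1 and Lamc1, the beta and gamma chains of the common laminins, did not pass either: Lamb1 ranged over 320.3 to 431 CPM with Ad-Hif1a and 217 to 438 CPM with Ad-Hif2a, against 292 to 319 CPM with Ad-C, with log2 differences of 0.33 (adjusted p = 0.47, SE 0.27) with Ad-Hif1a and 0.20 (adjusted p = 0.604, SE 0.27) with Ad-Hif2a. Lamc1 ranged over 146 to 255 CPM with Ad-Hif1a and 109 to 244 CPM with Ad-Hif2a, against 181 to 202 CPM with Ad-C, with log2 fold changes of 0.03 and -0.07 (adjusted p = 0.961 and 0.894). Without the 2 libraries that stood apart, Lamb1 passed upward at 0.41 (adjusted p = 0.0194) and 0.54 (adjusted p = 0.00303), and Nid2 passed with Ad-Hif2a at 0.46 (adjusted p = 0.0187).

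Edil3, a secreted protein that binds Itgav receptors, had 182 to 318 CPM with Ad-Hif1a and 194 to 272 CPM with Ad-Hif2a, against 331 to 337 CPM with Ad-C. All HIF libraries lay below the controls, and a log2 difference of -0.42 (adjusted p = 0.262, SE 0.21) with Ad-Hif1a and -0.57 (adjusted p = 0.115, SE 0.21) with Ad-Hif2a did not pass. Fbln5, a protein of elastic fibres, ranged over 107 to 145 CPM with Ad-Hif1a and 107 to 142 CPM with Ad-Hif2a, against 114 to 117 CPM with Ad-C, with log2 fold changes of 0.13 and 0.17 (adjusted p = 0.682 and 0.511). Vitronectin (Vtn), a ligand of Itgav receptors that reaches tissue mainly from plasma, had 1 count in 1 Ad-Hif2a library and 1 Ad-C library and none in the other 7.

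**Figure D2:**
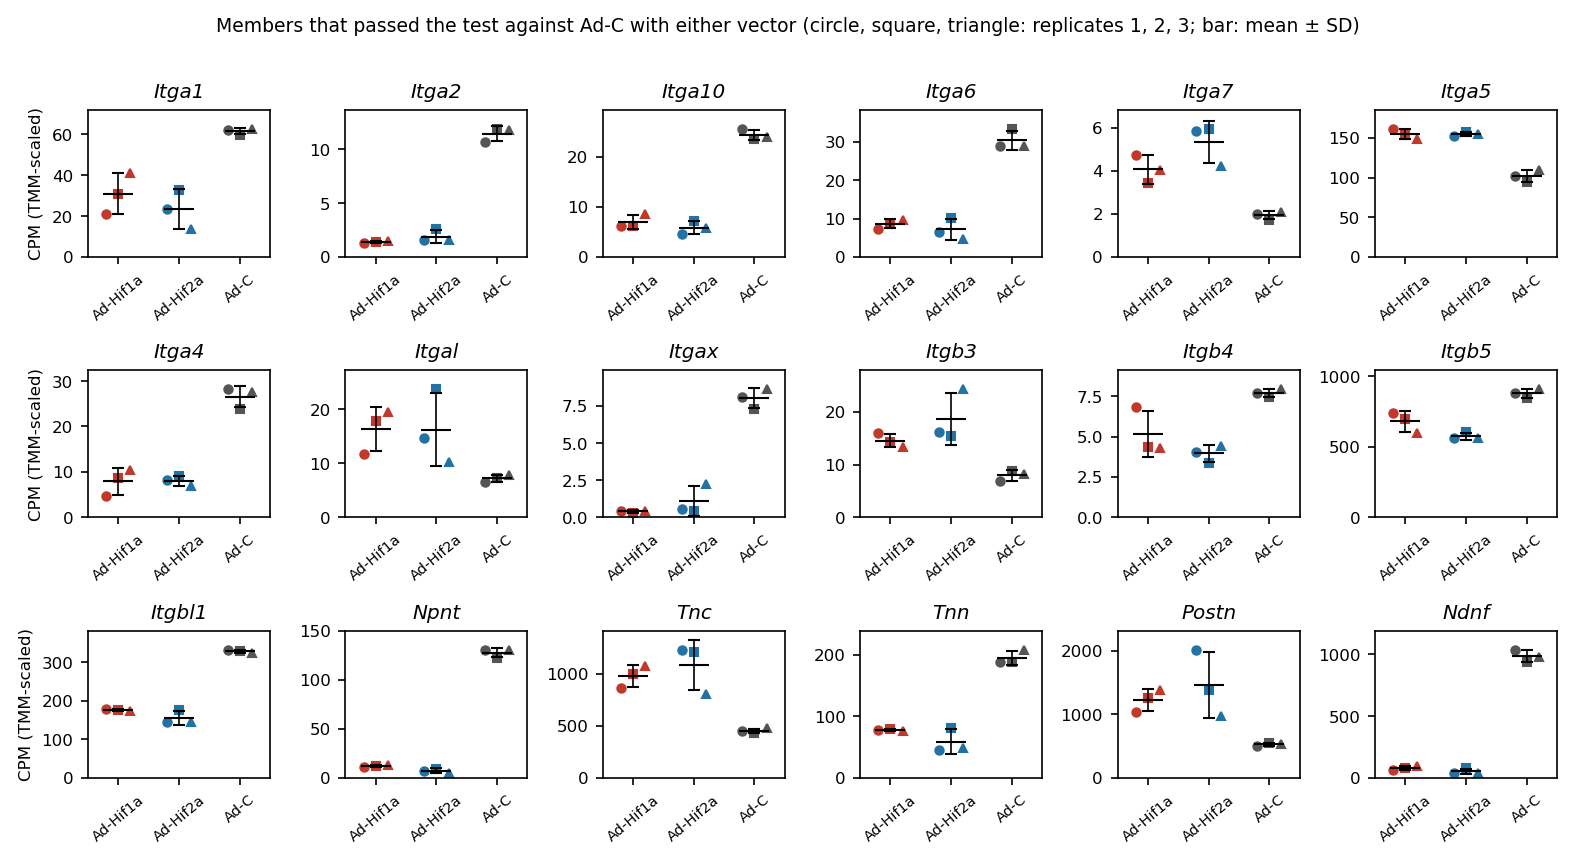
CPM (y axis, from 0) of the 18 members that passed with either vector, in the 3 libraries of Ad-Hif1a, Ad-Hif2a and Ad-C (x axis; circle, square and triangle for replicates 1, 2 and 3), with mean ± SD. Npnt lies between 4.81 and 12.6 CPM in the HIF libraries and between 123 and 131 CPM in the Ad-C libraries, and Postn lies at 978 CPM or more against at most 542 CPM.

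Of the receptor chains, the collagen-binding alpha chains showed falls in the less abundant members and none in the most abundant. Itga2, best known as the collagen receptor of platelets and epithelium, had 1.30, 1.40 and 1.49 CPM with Ad-Hif1a and 1.53, 2.57 and 1.53 CPM with Ad-Hif2a, against 10.7, 11.9 and 11.8 CPM with Ad-C. Against Ad-C the log2 value was -3.03 (adjusted p = 0.00054, SE 0.24) with Ad-Hif1a and -2.62 (adjusted p = 0.000711, SE 0.24) with Ad-Hif2a, or 8.19-fold and 6.15-fold lower, and it passed in every fit that left out 1 library. Itga10, a collagen receptor chain of cartilage, had 6.23, 6.28 and 8.64 CPM with Ad-Hif1a and 4.54, 7.09 and 5.83 CPM with Ad-Hif2a, against 25.6, 23.6 and 23.9 CPM with Ad-C. Its log2 change was -1.80 (adjusted p = 0.00297, SE 0.22) with Ad-Hif1a and -2.08 (adjusted p = 0.00136, SE 0.22) with Ad-Hif2a, and it also passed in each of those fits.

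Itga1, a collagen receptor chain of mesenchymal cells, had 21.02, 30.8 and 40.9 CPM with Ad-Hif1a and 23.5, 32.9 and 13.5 CPM with Ad-Hif2a, against 62.0, 59.7 and 62.6 CPM with Ad-C. The control libraries stood close together, and the HIF libraries lay lower and wider. Its log2 values were -1.01 (adjusted p = 0.115, SE 0.34) with Ad-Hif1a and -1.42 (adjusted p = 0.0345, SE 0.35) with Ad-Hif2a. DESeq2 called Itga1 with Ad-Hif1a too (adjusted p = 0.0357). The Ad-Hif2a call in edgeR was lost without any 1 of 5 libraries, the 3 controls among them (adjusted p up to 0.184). Itga11, the main collagen receptor chain of fibroblasts and osteogenic cells, had 194 to 330.0 CPM with Ad-Hif1a and 145 to 319.8 CPM with Ad-Hif2a, against 250.2 to 309 CPM with Ad-C, with log2 fold changes of -0.14 and -0.15 (adjusted p = 0.822 and 0.771). Per kb of the longest transcript, Itga11 stood at 51.7 ± 13.8 CPM per kb with Ad-Hif1a, 51.5 ± 19.4 with Ad-Hif2a and 56.7 ± 5.95 with Ad-C, whereas Itga1, Itga2 and Itga10 were at 5.60 CPM per kb or less in every group.

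Among the laminin-binding chains, Itga6 and Itga7 moved in opposite directions. Itga6, which pairs with Itgb1 or Itgb4, had 7.36, 8.96 and 9.69 CPM with Ad-Hif1a and 6.61, 10.2 and 4.73 CPM with Ad-Hif2a, against 28.9, 33.4 and 29.0 CPM with Ad-C. Its fall was -1.80 (adjusted p = 0.00485, SE 0.24) with Ad-Hif1a and -2.11 (adjusted p = 0.00218, SE 0.25) with Ad-Hif2a in log2 units, and it passed in each fit with 1 library left out (adjusted p up to 0.0473 and 0.024). Itga7, the laminin receptor chain of muscle, had 4.76, 3.43 and 4.04 CPM with Ad-Hif1a and 5.84, 5.94 and 4.22 CPM with Ad-Hif2a, against 1.99, 1.74 and 2.09 CPM with Ad-C. Itga7 changed by 1.06 (adjusted p = 0.0335, SE 0.24) with Ad-Hif1a and 1.46 (adjusted p = 0.00846, SE 0.24) with Ad-Hif2a in log2 units. The Itga7 calls were lost in 7 of 9 such fits with Ad-Hif1a (adjusted p up to 0.207) and, without Ad-C replicate 1 or 2, with Ad-Hif2a (up to 0.0734). Itga3, which also binds laminins, had 17.4 to 18.4 CPM with Ad-Hif1a and 10.9 to 17.4 CPM with Ad-Hif2a, against 16.3 to 18.2 CPM with Ad-C, overlapping in both comparisons, and did not pass (0.02, adjusted p = 0.968, SE 0.20, with Ad-Hif1a and -0.42, adjusted p = 0.196, SE 0.21, with Ad-Hif2a, log2).

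Itga5, the chain of the classical fibronectin receptor, rose. It had 161, 154 and 149 CPM with Ad-Hif1a and 152, 158 and 155 CPM with Ad-Hif2a, against 102, 94.8 and 109 CPM with Ad-C. The lowest HIF library stood at 149 CPM and the highest control library at 109 CPM. In log2 units it changed by 0.60 (adjusted p = 0.0314, SE 0.14) with Ad-Hif1a and 0.60 (adjusted p = 0.0244, SE 0.14) with Ad-Hif2a, a 1.51-fold and 1.52-fold rise. The calls were lost in 6 of 9 fits with 1 library left out in each comparison (adjusted p up to 0.213 and 0.17) and in both without the filter on low counts, and with Ad-Hif2a also with only the 6 libraries compared, while the log2 fold change stayed between 0.54 and 0.67.

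Itgav, which pairs with Itgb1, Itgb3, Itgb5, Itgb6 or Itgb8, had 98.7, 154 and 237 CPM with Ad-Hif1a and 150.2, 222 and 77.6 CPM with Ad-Hif2a, against 369.8, 351 and 384 CPM with Ad-C. Itga8, the nephronectin receptor chain, had 19.2, 28.7 and 37.8 CPM with Ad-Hif1a and 32.3, 33.0 and 11.5 CPM with Ad-Hif2a, against 68.9, 70.3 and 70.3 CPM with Ad-C. Both lay below the controls in all 6 HIF libraries and did not pass in edgeR. For Itgav the log2 fold change was -1.20 (adjusted p = 0.125, SE 0.42) with Ad-Hif1a and -1.32 (adjusted p = 0.0776, SE 0.42) with Ad-Hif2a, and for Itga8 it was -1.28 (adjusted p = 0.101, SE 0.41) with Ad-Hif1a and -1.47 (adjusted p = 0.0563, SE 0.42) with Ad-Hif2a. DESeq2 called both genes, at an adjusted p of 0.0258 and 0.00857 for Itgav and 0.0162 and 0.00301 for Itga8. Without the 2 libraries that stood apart, Itgav passed at -1.02 (adjusted p = 0.0011) and -0.88 (adjusted p = 0.0023), and Itga8 at -1.09 (adjusted p = 1.87e-05) and -1.03 (adjusted p = 2.49e-05). Those libraries were set apart partly by the members' own counts, so these passes are no independent support. Itga2b, the platelet fibrinogen receptor chain, had 1.16 to 1.93 CPM with Ad-Hif1a and 1.54 to 6.04 CPM with Ad-Hif2a, against 1.21 to 1.71 CPM with Ad-C; the highest value was that of Ad-Hif2a replicate 3, and the log2 fold change was 0.16 (adjusted p = 0.831, SE 0.41) with Ad-Hif1a and 0.91 (adjusted p = 0.161, SE 0.41) with Ad-Hif2a.

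The order of Itga5 and Itgav per length in the HIF groups depended on the length used. Per kb of the longest transcript, Itga5 stood at 35.3 ± 1.39 CPM per kb with Ad-Hif1a and 35.4 ± 0.625 with Ad-Hif2a, against 23.3 ± 1.68 with Ad-C. Itgav stood at 23.2 ± 9.88 CPM per kb with Ad-Hif1a and 21.2 ± 10.2 with Ad-Hif2a, against 52.2 ± 2.35 with Ad-C (SD, n = 3 each). Per kb of coding length, Itgav was at 52.2 and 47.8 CPM per kb with Ad-Hif1a and Ad-Hif2a and Itga5 at 49.0 and 49.1. In Ad-C, Itgav was above Itga5 on both scales, and Itga11 and Itgav did not differ beyond their spread per kb of transcript, while per kb of coding length Itgav stood at 117 and Itga11 at 79.0 CPM per kb.

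**Figure D3:**
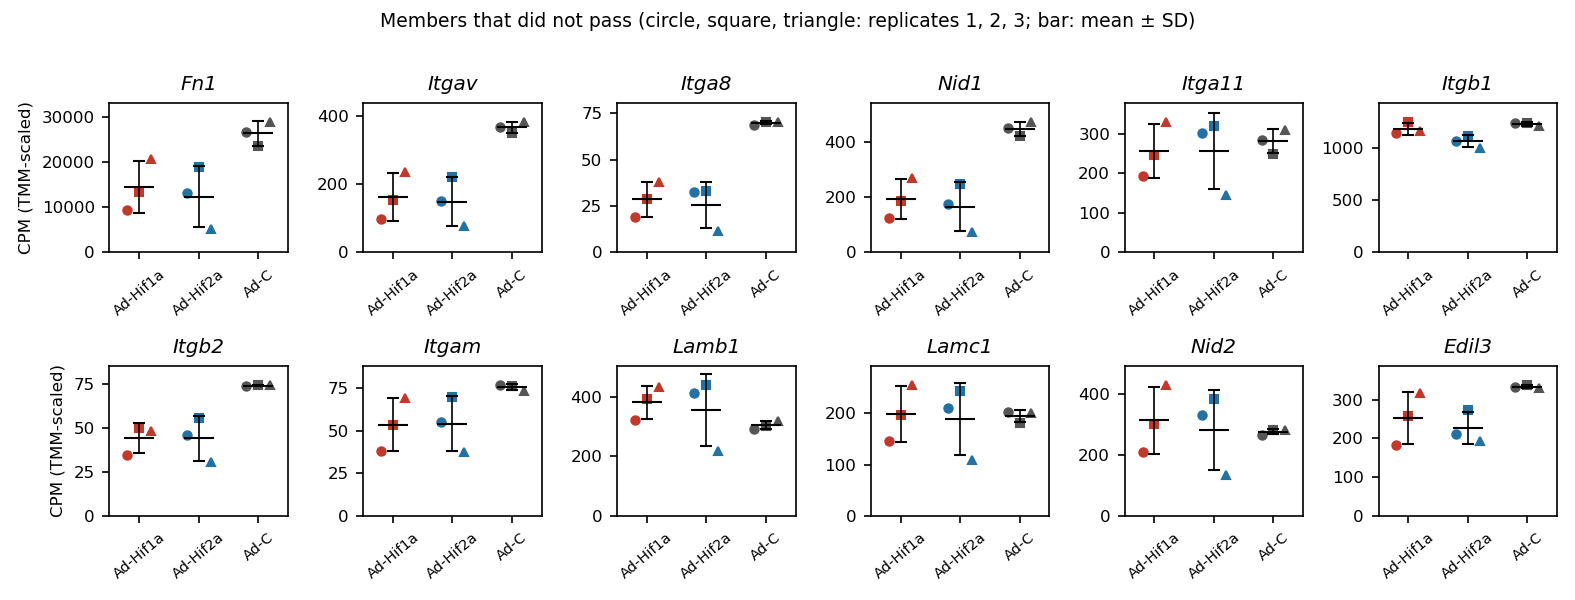
CPM (y axis, from 0) of 12 members that did not pass, picked after their values were seen, in the libraries of Ad-Hif1a, Ad-Hif2a and Ad-C (x axis; circle, square and triangle for replicates 1, 2 and 3), with mean ± SD. For Fn1, Itgav, Itga8 and Nid1, replicate 1 is the lowest Ad-Hif1a library and replicate 3 the lowest Ad-Hif2a library, at 9364 and 5195 CPM for Fn1.

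Among the beta chains, Itgb1, the common partner of the matrix receptors, had 1136, 1244 and 1159 CPM with Ad-Hif1a and 1068, 1112 and 1000.0 CPM with Ad-Hif2a, against 1237, 1236 and 1209 CPM with Ad-C. All Ad-Hif2a libraries were below the controls and Ad-Hif1a overlapped them. Itgb1 did not pass (-0.06, adjusted p = 0.816, SE 0.14, with Ad-Hif1a and -0.21, adjusted p = 0.31, SE 0.14, with Ad-Hif2a, log2). Itgb5, which pairs with Itgav to bind vitronectin, had 741, 699.7 and 597 CPM with Ad-Hif1a and 559, 603 and 564 CPM with Ad-Hif2a, against 883, 845 and 906 CPM with Ad-C. All HIF libraries lay below the controls. In log2 units the values were -0.38 (adjusted p = 0.171, SE 0.15) with Ad-Hif1a and -0.61 (adjusted p = 0.0352, SE 0.15) with Ad-Hif2a, and the Ad-Hif2a call was lost without the filter and with only the 6 libraries compared, and held in 2 of 9 fits with 1 library left out (adjusted p up to 0.205).

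Itgb3, the partner of Itgav in osteoclasts and of Itga2b in platelets, rose. It had 15.9, 14.3 and 13.4 CPM with Ad-Hif1a and 16.2, 15.4 and 24.3 CPM with Ad-Hif2a, against 6.85, 8.80 and 8.18 CPM with Ad-C, and the highest value was that of Ad-Hif2a replicate 3. Its rise was 0.88 (adjusted p = 0.0464, SE 0.22) with Ad-Hif1a and 1.21 (adjusted p = 0.0122, SE 0.22) with Ad-Hif2a in log2 units. With Ad-Hif1a it was lost under upper-quartile scaling, under the filter of 10 counts per library and in 7 of 9 fits with 1 library left out (adjusted p up to 0.265) and with Ad-Hif2a without Ad-C replicate 1 or 3 (up to 0.0963). Beside it, the osteoclast markers had a summed level of 191 to 208 CPM with Ad-Hif1a and 202 to 207 CPM with Ad-Hif2a, against 204 to 214 CPM with Ad-C. In each comparison 1 of 4 tested markers fell (Atp6v0d2) and none passed upward. The list's log2 fold changes ran from -1.25 to 0.13 with Ad-Hif1a, with a median of -0.10. With Ad-Hif2a they ran from -1.15 to 1.255, with a median of 0.05, and the highest did not pass. Over all genes, 5.22% fell with Ad-Hif1a and 7.72% with Ad-Hif2a. The part of the osteoclast markers in the Itgb3 result was not tested.

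Itgb4, the partner of Itga6 in epithelial hemidesmosomes, had 6.80, 4.36 and 4.29 CPM with Ad-Hif1a and 4.07, 3.37 and 4.44 CPM with Ad-Hif2a, against 7.67, 7.46 and 7.91 CPM with Ad-C. It fell with Ad-Hif2a (log2 fold change -0.96, adjusted p = 0.0291, SE 0.23) and did not pass with Ad-Hif1a (-0.60, adjusted p = 0.144, SE 0.22), and the Ad-Hif2a call was lost with only the 6 libraries compared and in 6 of 9 fits with 1 library left out (adjusted p up to 0.147). Itgb8 had 2.83 to 6.83 CPM with Ad-Hif1a and 2.77 to 5.32 CPM with Ad-Hif2a, against 3.37 to 4.64 CPM with Ad-C, overlapping in both comparisons (log2 fold change 0.15 and 0.14; adjusted p = 0.846 and 0.82). Itgb6, an epithelial chain, was below the filter. Per kb of the longest transcript, Itgb1 stood at 309 ± 15.02 CPM per kb with Ad-Hif1a, 278 ± 14.8 with Ad-Hif2a and 322 ± 4.22 with Ad-C. Itgb5 was next, at 207 ± 22.6 and 175 ± 7.38 with the HIF vectors and 268 ± 9.38 CPM per kb with Ad-C, and the other beta chains were at 25.0 CPM per kb or less in every group.

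Itga4, which binds Vcam1 and fibronectin and is best known on leukocytes, fell. It had 4.65, 8.67 and 10.4 CPM with Ad-Hif1a and 8.14, 9.09 and 6.92 CPM with Ad-Hif2a, against 28.2, 23.9 and 27.6 CPM with Ad-C, and it changed by -1.79 (adjusted p = 0.0092, SE 0.29) with Ad-Hif1a and -1.72 (adjusted p = 0.00863, SE 0.29) with Ad-Hif2a in log2 units. The call was lost without Ad-C replicate 1 or 3 in both comparisons and, with Ad-Hif1a, also without Ad-Hif1a replicate 2 (adjusted p up to 0.0647 and 0.0709). Itga9, a tenascin-C receptor chain, had 26.7 to 31.2 CPM with Ad-Hif1a and 24.5 to 29.0 CPM with Ad-Hif2a, against 22.0 to 23.0 CPM with Ad-C, and did not pass (log2 fold change 0.34, adjusted p = 0.179, SE 0.14, with Ad-Hif1a and 0.23, adjusted p = 0.273, SE 0.14, with Ad-Hif2a).

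The leukocyte chains moved in different directions. Itgax, which marks dendritic cells and some macrophages, had 0.453, 0.291 and 0.435 CPM with Ad-Hif1a and 0.531, 0.457 and 2.26 CPM with Ad-Hif2a, against 8.12, 7.29 and 8.61 CPM with Ad-C. The log2 difference was -4.37 (adjusted p = 0.00251, SE 0.50) with Ad-Hif1a and -3.11 (adjusted p = 0.00502, SE 0.46) with Ad-Hif2a, or 20.7-fold and 8.62-fold lower, from at most 31 counts in each HIF library. Ad-Hif2a replicate 3 made the fall smaller, and without it the log2 difference was -3.94. Itgal, the chain of the receptor that binds Icam1, had 11.7, 17.8 and 19.4 CPM with Ad-Hif1a and 14.7, 23.7 and 10.3 CPM with Ad-Hif2a, against 6.51, 7.23 and 7.91 CPM with Ad-C. It rose, by 1.16 (adjusted p = 0.0479, SE 0.29) with Ad-Hif1a and 1.13 (adjusted p = 0.0428, SE 0.30) with Ad-Hif2a in log2 units, but both calls were lost without composition factors, the Ad-Hif1a call under the filter of 10 counts per library and the Ad-Hif2a call with only the 6 libraries compared, and each held in only 2 of 9 fits with 1 library left out (adjusted p up to 0.199 and 0.172).

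Itgam, the macrophage and neutrophil chain, had 38.1, 53.6 and 69.3 CPM with Ad-Hif1a and 55.3, 70.1 and 37.6 CPM with Ad-Hif2a, against 76.9, 76.6 and 73.8 CPM with Ad-C. Its partner Itgb2 had 34.7, 50.1 and 48.3 CPM with Ad-Hif1a and 46.1, 55.6 and 30.5 CPM with Ad-Hif2a, against 74.0, 74.5 and 74.4 CPM with Ad-C. Both lay below the controls in every HIF library and did not pass in edgeR: in log2 units they stood at -0.51 (adjusted p = 0.293, SE 0.28) with Ad-Hif1a and -0.49 (adjusted p = 0.242, SE 0.28) with Ad-Hif2a for Itgam and -0.75 (adjusted p = 0.0818, SE 0.23) with Ad-Hif1a and -0.78 (adjusted p = 0.061, SE 0.23) with Ad-Hif2a for Itgb2. DESeq2 called Itgb2 (adjusted p = 0.0297 and 0.0186) and not Itgam. Without the 2 libraries that stood apart, which were set apart partly by the members' own counts, Itgb2 passed at -0.62 (adjusted p = 0.00243) and -0.54 (adjusted p = 0.00548), and Itgam did not. Itgb7 had 2 to 26 counts in a library, at 0.872 to 1.47 CPM with Ad-Hif1a and 0.514 to 1.09 CPM with Ad-Hif2a, against 0.110 to 0.588 CPM with Ad-C, and did not pass (log2 fold change 1.84, adjusted p = 0.0855, SE 0.56, with Ad-Hif1a and 1.19, adjusted p = 0.185, SE 0.57, with Ad-Hif2a).

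Macrophage markers fell in the same comparisons. Of 18 markers, 12 fell with Ad-Hif1a (66.7%) and 11 with Ad-Hif2a (61.1%), against 5.22% and 7.72% of all genes. None of the 18 rose, and none was at 0. The median log2 fold change of the list was -1.37 with Ad-Hif1a and -1.40 with Ad-Hif2a. Its summed level was 1639 to 1782 CPM with Ad-Hif1a and 1643 to 1945 CPM with Ad-Hif2a, against 3907 to 4151 CPM with Ad-C. The lowest adjusted p were those of Cd68, Mrc1, Csf1r and Mpeg1. Mrc1, the mannose receptor, stood at 11.7 to 18.4 CPM with Ad-Hif1a and 5.32 to 16.1 CPM with Ad-Hif2a, against 197 to 215 CPM with Ad-C. Csf1r, the receptor for M-CSF, stood at 42.0 to 49.5 CPM with Ad-Hif1a and 36.9 to 53.2 CPM with Ad-Hif2a, against 147 to 156 CPM with Ad-C. The part of macrophage RNA in the falls of Itgax and Itga4 and in the lower values of Itgam and Itgb2 was not tested. Itgal rose where this list fell.

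T and NK cell markers were close to absent: 6 of the 8 found (Cd3e, Cd3g, Cd3d, Cd8a, Cd8b1 and Ncr1) had no count. The tested Cd4 fell, at 0.113 to 0.746 CPM with Ad-Hif1a and 0.229 to 0.583 CPM with Ad-Hif2a, against 2.51 to 3.53 CPM with Ad-C. Cd4 passed the filter on low counts through Ad-C, where it was high. Of 9 platelet markers, which summed to 17.8 to 19.7 CPM with Ad-Hif1a and 21.3 to 37.8 CPM with Ad-Hif2a, against 6.26 to 9.36 CPM with Ad-C, Gp1ba and Gp9 had no count and 3 could be tested. Ppbp rose (10.7 to 14.3 CPM with Ad-Hif1a and 14.5 to 18.3 CPM with Ad-Hif2a, against 0.994 to 1.46 CPM with Ad-C), and Gp1bb and Pf4 did not pass. Endothelial markers summed to 15.2 to 15.7 CPM with Ad-Hif1a and 11.9 to 16.4 CPM with Ad-Hif2a, against 9.92 to 11.3 CPM with Ad-C, with Cldn5 at 0. Erg rose with both vectors and Pecam1 rose and Kdr fell with Ad-Hif2a, of 4 tested, and Vwf did not pass. Muscle markers summed to 6.55 to 13.8 CPM with the HIF vectors and 65.4 to 82.4 CPM with Ad-C, and Myod1 was at 0. Myh1, Myh8 and Des fell with both vectors and Acta1 rose, of 5 tested, while Itga7, the muscle chain, rose. Over all genes, 11.3% passed with Ad-Hif1a and 15.6% with Ad-Hif2a. The part of these cell types in the values of Itga2, Itga2b, Itgb3, Itga6 and Itga7 was not tested.

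Itgbl1, a secreted protein with the cysteine-rich repeats of a beta chain but no membrane anchor, fell with little spread. It had 178, 175 and 174 CPM with Ad-Hif1a and 146, 176 and 145 CPM with Ad-Hif2a, against 333, 329 and 324 CPM with Ad-C. The highest library was 1.02 times the lowest with Ad-Hif1a and 1.21 times with Ad-Hif2a, against 1.03 times with Ad-C. Its log2 difference from Ad-C was -0.91 (adjusted p = 0.00732, SE 0.14) with Ad-Hif1a and -1.08 (adjusted p = 0.00293, SE 0.14) with Ad-Hif2a. With Ad-Hif1a the call was lost without Ad-Hif1a replicate 2, Ad-C replicate 1 or Ad-C replicate 3 (adjusted p up to 0.0906), and with Ad-Hif2a it held throughout.

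Between the vectors, with Ad-Hif2a against Ad-Hif1a, no member passed in edgeR, and neither did any of the 14413 genes (0%). At an unadjusted p under 0.05 there were 2 members of 36, Ndnf and Npnt, and 338 of all genes (2.35%). DESeq2 called 80 genes and no member. Npnt was lower with Ad-Hif2a in all libraries (log2 fold change -0.71, SE 0.23, unadjusted p = 0.0189, adjusted p = 1). Ndnf overlapped (-0.66, SE 0.27, unadjusted p = 0.0405, adjusted p = 1). The 36 log2 fold changes ran from -0.71 for Npnt to 1.27 for Itgax (SE 0.55), with a median of -0.12 beside 0.00 over all genes. Itgax was higher in all 3 Ad-Hif2a libraries, at 8 to 31 counts against 5 to 8 counts with Ad-Hif1a, and its log2 value was 0.385 without Ad-Hif2a replicate 3. Groups that did not overlap were found for 5 of 36 members, 2 with Ad-Hif2a above and 3 with it below, against 3.07% and 3.21% of all genes. Itga1, Itgb4 and Itgb5, which passed against Ad-C with Ad-Hif2a alone, did not pass in this comparison (unadjusted p = 0.269, 0.15 and 0.16).

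The HIF libraries differed among themselves more than the controls did. The highest library was a median of 1.47 times the lowest over the 36 members with Ad-Hif1a and 1.89 times with Ad-Hif2a, against 1.10 times with Ad-C. Over all genes these medians were 1.39, 1.65 and 1.16. Replicate 1 was the lowest Ad-Hif1a library for 24 of 36 members, and replicate 3 the lowest Ad-Hif2a library for 26 of 36. Set against the mean of Ad-C, the median member stood at -0.48, -0.35 and -0.11 (log2) in Ad-Hif1a replicates 1, 2 and 3 and at -0.63, -0.22 and -0.90 in Ad-Hif2a replicates 1, 2 and 3, against -0.05 to 0.04 in the Ad-C libraries. Without overlap with Ad-C, 9 members lay above and 19 below with Ad-Hif1a, and 7 above and 20 below with Ad-Hif2a. Over all genes, 24.5% lay above and 25.9% below with Ad-Hif1a, and 24.0% and 25.5% with Ad-Hif2a.

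**Figure D4:**
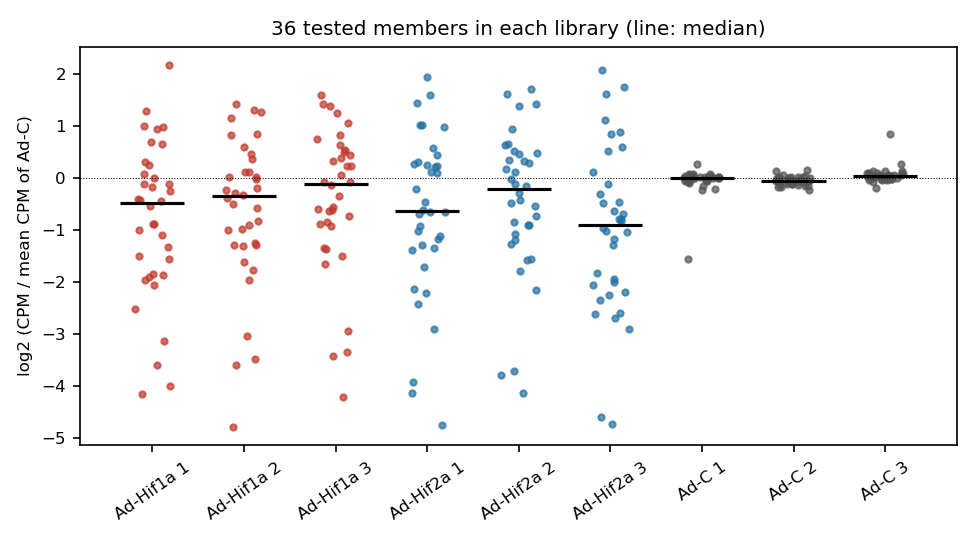
Log2 ratio of the CPM in each library (x axis) to the mean CPM of Ad-C (y axis) for the 36 tested members, 1 point per member, with the median as a line. The Ad-C libraries lie close to 0 except for Itgb7, at -1.56 in replicate 1 and 0.85 in replicate 3, and the lowest medians are those of Ad-Hif2a replicate 3, at -0.90, and Ad-Hif2a replicate 1, at -0.63.

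The number of members that passed depended on which library was left out. With Ad-Hif1a against Ad-C, 27 members passed without Ad-Hif2a replicate 3, which enters this fit through the shared spread, and 6 passed when Ad-Hif1a replicate 2 or Ad-C replicate 1 or 3 was dropped. Dropping Ad-C replicate 2 left 9. Over all genes the calls moved the same way, to 5330 of 14648 tested without Ad-Hif2a replicate 3 and to 467, 441, 635 and 487 without Ad-Hif1a replicate 2 and Ad-C replicates 1, 2 and 3, against 1624 of 14413. With Ad-Hif2a against Ad-C, 23 passed when replicate 3 of either HIF vector was dropped, 12 when Ad-Hif2a replicate 1 was, 8 when Ad-C replicate 1 was, and 10 when Ad-C replicate 2 or 3 was. All genes gave 3309 and 3111 calls without replicate 3 of Ad-Hif2a and of Ad-Hif1a, 1063 without Ad-Hif2a replicate 1, and 688, 1014 and 769 without Ad-C replicates 1, 2 and 3, against 2247. Itga2, Itga6, Itga10, Itgax, Ndnf and Npnt passed in both comparisons in every such fit, and Itgbl1 and Tnn did so with Ad-Hif2a. Itgax had 5 to 31 counts in the HIF libraries and 130 to 161 with Ad-C. It passed the filter on low counts through Ad-C, and it was not tested when each library had to hold 10 counts. None of the 6 members that rose kept its call in every such fit.

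**Figure D5:**
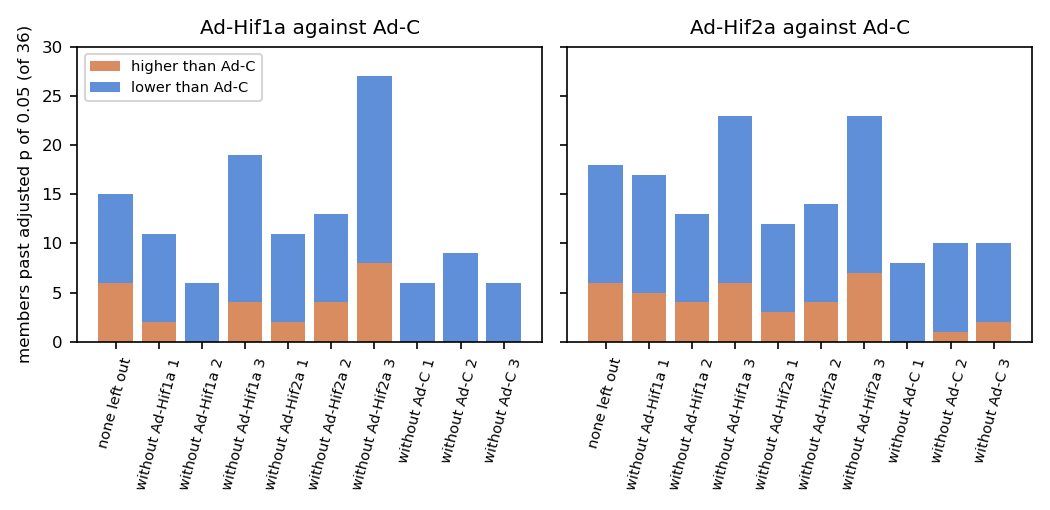
Number of the 36 tested members past the threshold (y axis, from 0), higher or lower than Ad-C, with no library left out and with each of the 9 libraries left out in turn (x axis), for Ad-Hif1a against Ad-C (left) and Ad-Hif2a against Ad-C (right). The counts run from 6 to 27 with Ad-Hif1a and from 8 to 23 with Ad-Hif2a, and the higher members drop to 0 in both comparisons without Ad-C replicate 1.

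The adhesion machinery ties integrins to actin. Of 47 tested genes of the adhesion machinery, none rose and 5 fell with Ad-Hif1a (10.6%), and 2 rose and 5 fell with Ad-Hif2a (14.9%), beside 11.3% and 15.6% of all genes, and the list's median log2 fold change was 0.02 and -0.10. The genes with the lowest adjusted p were Parvg, Fermt3, Cav1 and Src. Parvg and Fermt3, a parvin and a kindlin of blood cells, fell: Parvg had 2.61 to 3.29 CPM with Ad-Hif1a and 1.31 to 3.09 CPM with Ad-Hif2a, against 11.7 to 12.1 CPM with Ad-C, and Fermt3 had 12.6 to 15.9 CPM with Ad-Hif1a and 13.3 to 15.6 CPM with Ad-Hif2a, against 23.4 to 25.7 CPM with Ad-C. The part of the lower macrophage markers in these falls was not tested. Cav1, the main caveolin, had 54.3 to 67.9 CPM with Ad-Hif1a and 39.8 to 79.7 CPM with Ad-Hif2a, against 134 to 152 CPM with Ad-C, and fell (log2 fold change -1.20, adjusted p = 0.0275, SE 0.26, with Ad-Hif1a and -1.18, adjusted p = 0.0236, SE 0.26, with Ad-Hif2a). Src, a kinase at adhesion sites, rose with Ad-Hif2a (0.62, adjusted p = 0.0248, SE 0.14) and did not pass with Ad-Hif1a (0.53, adjusted p = 0.0507, SE 0.14).

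Other ligands of integrins were read in the same way. Of 28 tested RGD and matricellular genes outside the members, 7 went up and 2 down with Ad-Hif1a (32.1%), and 7 rose and 4 fell with Ad-Hif2a (39.3%). Beside these stood 11.3% and 15.6% of all genes. The list's median log2 fold change was 0.255 and 0.135. Tgfbi, a matrix protein bound by integrins, had 376 to 405 CPM with Ad-Hif1a and 335 to 436 CPM with Ad-Hif2a, against 75.1 to 82.2 CPM with Ad-C (log2 fold change 2.30, adjusted p = 0.000305, SE 0.15, with Ad-Hif1a and 2.27, adjusted p = 0.000244, SE 0.15, with Ad-Hif2a). Ccn2, connective tissue growth factor, had 460.1 to 477 CPM with Ad-Hif1a and 435 to 485 CPM with Ad-Hif2a, against 134 to 142 CPM with Ad-C, and the chemokine Cxcl12 had 898 to 1224 CPM with Ad-Hif1a and 919.7 to 1247 CPM with Ad-Hif2a, against 165 to 175 CPM with Ad-C. These 3 genes rose with both vectors. Ccn3, of the same family as Ccn2, fell, at 50.9 to 86.4 CPM with Ad-Hif1a and 22.7 to 53.6 CPM with Ad-Hif2a, against 346 to 390.2 CPM with Ad-C (log2 fold change -2.48, adjusted p = 0.00361, SE 0.31, with Ad-Hif1a and -3.47, adjusted p = 0.000865, SE 0.33, with Ad-Hif2a).

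Of 17 other laminin and basement membrane genes, 4 were higher and 1 lower with Ad-Hif1a (29.4%), and 5 rose and 1 fell with Ad-Hif2a (35.3%). The share of all genes was 11.3% and 15.6%, and the list's median was 0.12 and -0.07. Fbln1, a fibulin of basement membranes and elastic tissue, had 469 to 561 CPM with Ad-Hif1a and 522 to 584 CPM with Ad-Hif2a, against 70.1 to 76.6 CPM with Ad-C, and rose (log2 fold change 2.82, adjusted p = 0.000202, SE 0.16, with Ad-Hif1a and 2.93, adjusted p = 0.000138, SE 0.16, with Ad-Hif2a). Lamc3, a gamma chain of the rarer laminins, rose, and Lama3, an alpha chain of epithelial laminin, fell, both at levels under 10 CPM. Lamc3 had 7 to 8 counts in the Ad-C libraries and 25 to 54 in the HIF libraries. Lama3 had 41 to 69 counts with Ad-C and 1 to 10 in the HIF libraries. Lamc3 passed the filter on low counts through the HIF libraries and Lama3 through Ad-C, the side where each was high. Of 9 cell-surface ligands, 1 rose with Ad-Hif1a (11.1%, beside 11.3% of all genes). With Ad-Hif2a, 2 rose and 1 fell (33.3%, beside 15.6% of all genes), and the list's median was 0.12 and 0.395 in the 2 comparisons. Vcam1, the ligand of Itga4, rose with Ad-Hif1a (log2 fold change 0.64, adjusted p = 0.0287, SE 0.14) and stood at 0.45 (adjusted p = 0.0738, SE 0.14) with Ad-Hif2a. F11r rose with Ad-Hif2a (2.59, adjusted p = 0.0041, SE 0.37), as did Thy1, a ligand of leukocyte and Itgav receptors (1.08, adjusted p = 0.0304, SE 0.26), and L1cam fell (-0.88, adjusted p = 0.0411, SE 0.23). Of the 10 osteoblast markers, 3 fell with Ad-Hif1a and 4 with Ad-Hif2a, against 5.22% and 7.72% of all genes, with a median of -0.64 and -0.85. Sp7, Bglap and Alpl fell with both and Runx2 with Ad-Hif2a.

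Because HIF proteins bind DNA at a short core, ACGTG or GCGTG, the 250 bases before the start of each member were searched for it on both strands (RefSeq windows on GRCm38.p6, the first listed where a gene had several). Windows matched 27 of the 40 members. The core was found in 7 of them (25.9%), against 10431 of 27025 windows in all (38.6%). Of the 9 members that fell with Ad-Hif2a and had a window, 3 held a core (Itga2, Itgax and Itgb5). None of 3 members that rose did (Itga5, Postn and Tnc), and neither did 10 of 13 that did not pass; Fbln5, Itga9 and Lamb1 held it. Itga7, Itgal and Itgb3, which also rose, had no window. The windows of Npnt and Itga2, which fell in every fit, and of Postn, which rose, are shown as examples with and without a core. They run from 250 bases before the start to the base before it, on the strand of the gene, with the core in capitals:
Npnt, chr3:132950292-132950541, minus strand: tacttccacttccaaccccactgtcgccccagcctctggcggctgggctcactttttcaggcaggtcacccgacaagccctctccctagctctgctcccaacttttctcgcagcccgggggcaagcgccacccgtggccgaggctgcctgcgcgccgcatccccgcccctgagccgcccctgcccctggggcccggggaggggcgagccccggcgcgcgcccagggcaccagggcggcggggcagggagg
Itga2, chr13:114932101-114932350, minus strand: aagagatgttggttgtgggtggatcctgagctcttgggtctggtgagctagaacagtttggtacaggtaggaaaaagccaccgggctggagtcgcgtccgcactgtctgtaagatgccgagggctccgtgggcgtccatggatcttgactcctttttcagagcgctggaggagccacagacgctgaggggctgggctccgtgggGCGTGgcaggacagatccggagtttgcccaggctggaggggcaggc
Postn, chr3:54359017-54359266, plus strand: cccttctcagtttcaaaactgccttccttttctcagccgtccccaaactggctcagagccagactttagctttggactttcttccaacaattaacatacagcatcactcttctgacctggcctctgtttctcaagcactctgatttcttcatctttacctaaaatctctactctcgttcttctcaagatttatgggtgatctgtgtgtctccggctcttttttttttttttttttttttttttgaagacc

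The Itga2 window held 1 core, 46 bases before the start, and the windows of Npnt and Postn held none. The share of G and C was 74.0% for Npnt, 60.8% for Itga2 and 40.4% for Postn. A match is only a run of letters in this window, and its absence says nothing of binding elsewhere.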

How the data were processed

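Total RNA of 9 libraries (CORALL kit) was sequenced from mouse primary calvarial pre-osteoblasts, 3 each with Ad-Hif1a, Ad-Hif2a and Ad-C. The authors deposited 1 table a library, of whole read counts for each gene symbol, not normalized. The submitters' processing notes name bcl2fastq 2.20.0.422, fastp, STAR, Salmon and GRCm39; the annotation, settings and use of strand are not given in the sources used here, so reads of overlapping antisense genes cannot be told apart.

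Counts were analysed in R 4.3.3. Genes passing filterByExpr (14413; 15482 symbols had no count) were scaled by TMM (factors 0.957 to 1.03) and fitted in edgeR 4.0.16 (robust quasi-likelihood; statmod 1.5.0) on all 9 libraries with group and replicate number, because the study's methods name a paired test. Adjustment was by Benjamini-Hochberg over the 14413 genes, with a threshold of 0.05. Each SE is the absolute log2 fold change divided by the square root of its quasi-likelihood F statistic. Simulated counts with changes put in were used to try out the fit. They were drawn from the Ad-C means with the same dispersion in every group. They therefore do not show how the fit handles the unequal spread of these groups. Levels per kb used GENCODE M21 lengths (GRCm38). Alternatives were no replicate block, DESeq2 1.42.0, other scaling (RLE, upper quartile, library size alone), other filters, only the 6 libraries compared, and each library left out.

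Every member was accounted for, those past the threshold with all library values. Up to 4 genes with the lowest adjusted p were named from each of 11 other lists: adhesion machinery, other laminin and basement membrane genes, other RGD and matricellular ligands, cell-surface ligands, and macrophage, osteoclast, platelet, T and NK cell, endothelial, skeletal muscle and osteoblast markers; 1 gene that this rule named is not reported here. Members and lists were chosen with earlier results of these data known.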

Additional observations from a re-analysis of the deposited data

How the results depend on the processing

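No direction of a named gene's called change reversed under any alternative. The number of members called with Ad-Hif1a and Ad-Hif2a against Ad-C was 15 and 18, and became 20 and 22 in DESeq2, 15 and 18 with RLE factors, 14 and 18 with upper-quartile factors, 14 and 17 without composition factors, 14 and 16 without the filter, 12 and 17 when each library had to hold 10 counts, and 23 and 17 with only the 6 libraries compared. Against Ad-C, 36 members were tested in the main fit, 37 in DESeq2, 40 without the filter and 34 with 10 counts in each library. That last filter left Itgax untested and called 1224 and 1716 of 12602 genes. Of 14413 genes, RLE factors called 1624 and 2256, upper-quartile factors 1650 and 2278, and library size alone 1632 and 2316. Without the filter, 1533 and 2196 of 24731 genes were called. DESeq2 called 2313 of 16385 and 3401 of 15921 genes. With only the 6 libraries compared, 4706 of 14062 and 1705 of 14072 genes were called. Leaving out 1 library gave 6 to 27 called members with Ad-Hif1a, 8 to 23 with Ad-Hif2a, and 0 to 0 between the vectors. With the 2 libraries that stood apart (Ad-Hif1a 1, Ad-Hif2a 3) dropped together, chosen after seeing the data, 24 and 26 members passed. Members called with Ad-Hif2a against Ad-Hif1a were 0 throughout. Over all genes, 1624, 2247 and 0 calls in the 3 comparisons became 2313, 3401 and 80 in DESeq2; 4706, 1705 and 0 with the 6 libraries; 2 between the vectors without the filter; 441 to 5330, 688 to 3309 and 0 to 12 with 1 library left out; and 4022, 4173 and 11 without both. The cause was not tested.

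Without the replicate block, 17, 22 and 0 members and 2379, 3452 and 2 genes were called. The members added were Itga8 (adjusted p = 0.039) and Itgb2 (0.0461) with Ad-Hif1a and Itga8 (0.0198), Itgav (0.0359), Itgb2 (0.035) and Nid1 (0.0302) with Ad-Hif2a. The 9 pairs of libraries with the same number correlated at -0.575 to 0.098 in their deviations from the group means, and 0 of 9 exceeded 0.1. With 3 libraries per group, these values cannot decide whether libraries with the same number were paired. Pairs with different numbers ran from -0.569 to 0.610, the highest being Ad-Hif1a 1 with Ad-Hif2a 3, followed by Ad-Hif1a 3 with Ad-Hif2a 2 at 0.541. With 4 residual degrees of freedom and 3 libraries per group, changes near the threshold are not settled at this size, and members under the filter cannot be judged at this depth. With coding length in place of transcript length, 93 of 120 levels per kb were counted as moved by 1 SD of the group or more. That count includes levels with no reads and an SD of 0, which did not move (Itgad with both HIF vectors and Vtn with Ad-Hif1a).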
